A study of Homo sapiens with 6 samples.

Results

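Keratins are the intermediate filament proteins of epithelial cells. The 9 genes described here are the keratins of basal squamous cells, KRT5, KRT14 and KRT15, and the keratins linked with wounding and stress of the epithelium, KRT6A, KRT6B, KRT6C, KRT16 and KRT17, along with KRT75, the relative of KRT5 and KRT6 in hair follicles. They were picked by gene symbol, and each had 1 row among the 58884 rows of the deposited matrix of normalized counts, that is, read counts divided by a size factor of the library. Of the 9 genes, 8 had a mean of at least 10 normalized counts and were tested, and KRT75 did not reach that level.

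RNA sequencing compared KYSE450, a human oesophageal squamous cell carcinoma line with unaltered NRF2, with KEAP1null-KYSE450, in which KEAP1, the protein that holds the transcription factor NRF2 in check, was disrupted with CRISPR-Cas9. Each line had 3 libraries, and both were grown in the same medium with serum and no drug. KEAP1null-KYSE450 is a single clone, so the loss of KEAP1 cannot be told apart from other features of that clone. Nothing in the labels says that the libraries of a line came from separate cultures, and p-values then measure only the spread between these libraries.

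Keratin filaments are built from pairs of 1 type I and 1 type II chain, and neither type forms filaments alone. KRT5 (type II) with KRT14 (type I) is the textbook pair of basal cells in stratified squamous epithelia, where KRT15 is a further basal type I chain. KRT6A, KRT6B and KRT6C (type II) and KRT16 and KRT17 (type I) are held low in resting epidermis and rise after wounding, and KRT16 and KRT17 have been described as responsive to NRF2 in skin keratinocytes. KRT75 marks the companion layer of the hair follicle.

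The type II members lie in the keratin cluster of chromosome 12, all on the minus strand (coordinates in hg38, gencode v44 annotation). KRT5 spans chr12:52514575-52520530, KRT6A chr12:52487176-52493257, KRT6C chr12:52468516-52473805, KRT6B chr12:52446651-52452146 and KRT75 chr12:52424070-52434371, each with 9 exons in its main transcript. The type I members lie in the cluster of chromosome 17, also on the minus strand, each with 8 exons. KRT15 spans chr17:41513745-41522529, KRT14 chr17:41582279-41586895, KRT16 chr17:41609778-41615899 and KRT17 chr17:41619442-41624842.

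The 3 KRT6 genes are near copies, which bears on how their reads can be assigned. Their main transcripts are 95.4% identical between KRT6A and KRT6C, 92.8% between KRT6B and KRT6C and 90.6% between KRT6A and KRT6B. The following 60 coding bases of exon 2 (hg38, minus strand, 5′ to 3′) are shown because all 3 genes can be told apart in them. Capitals mark the 9 positions that are not shared by all 3 genes, of which KRT6A and KRT6B differ at 9, KRT6A and KRT6C at 5 and KRT6B and KRT6C at 4.
KRT6A, chr12:52491555-52491614: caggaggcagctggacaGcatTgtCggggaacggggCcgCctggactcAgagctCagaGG
KRT6B, chr12:52450439-52450498: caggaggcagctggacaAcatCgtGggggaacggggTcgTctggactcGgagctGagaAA
KRT6C, chr12:52472099-52472158: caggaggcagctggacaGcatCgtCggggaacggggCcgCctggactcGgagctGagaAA

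Reads of 150 bases can still be shared elsewhere. Of the 150-base windows of the main transcript, 9.26% of those of KRT6A, 12.7% of those of KRT6B and 16.3% of those of KRT6C occur unchanged in a transcript of another gene. The share was 0.605% for KRT14 and 0.729% for KRT16, whose transcripts are 86.7% identical, while KRT5, KRT15 and KRT17 had 0 such windows. For KRT75 it was 3.81%, all shared with a long non-coding gene that overlaps KRT75 on the opposite strand. That gene had 0 normalized counts in every library. The counts of KRT6B and KRT6C are therefore uncertain beside KRT6A, whose level was far higher.

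Promoter sequences (RefSeq, GRCh38.p14) were matched for 2 of the 9 members, KRT5 and KRT75. The 250 bases before the start of the main transcript of KRT5, at position 52520394, are shown because KRT5 was the most abundant member in both lines and carried a match to the core of the antioxidant response element, the DNA element that NRF2 binds.
KRT5 promoter, chr12:52520395-52520644, minus strand: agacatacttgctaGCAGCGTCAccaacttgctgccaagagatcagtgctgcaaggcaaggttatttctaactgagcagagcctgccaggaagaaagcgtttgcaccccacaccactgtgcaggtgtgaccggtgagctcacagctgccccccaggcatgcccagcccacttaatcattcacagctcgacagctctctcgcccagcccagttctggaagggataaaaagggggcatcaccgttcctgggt
Another annotated transcript of KRT5 starts farther upstream, at 52520530, inside this window, and gives the gene its longer span above. Capitals mark the match, which begins at -236 from the start of the main transcript and reads TGACNNNGC on the opposite strand. TGANTCA (the AP-1 motif, which shares its first letters with the former, so that 1 stretch can match both) and TATAAA, each searched on both strands, were not found in the window from 250 bases before to 50 bases after the start of KRT5. None of the 3 motifs was found in that window of KRT75. Over all 35116 promoters of the table the core element occurred in 13.3%, the AP-1 motif in 7.71% and TATAAA in 11.5%, so a match of the core element is common and is a description of letters only.

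Comparing the lines, 2 basal keratins rose, the third fell to near loss, and 4 of the 5 tested stress keratins fell in KEAP1null-KYSE450 cells. KRT5 rose 2.73-fold and KRT15 rose 3.23-fold, KRT14 was 69.6-fold lower, KRT17 28.9-fold lower and KRT6A 26.1-fold lower, each with 3 libraries per line. KRT6B and KRT6C also fell, from low levels, and KRT16 did not pass the test. A gene was called changed with an adjusted p under 0.05 (limma, Benjamini-Hochberg over the 16701 genes tested) and a log2 fold change of at least 1 in size. By this rule 7 of the 8 tested members were called, against 18.2% of all genes. Of these, 2 were higher, against 12.2% of all genes, and 5 were lower, against 5.98%. Over all genes this was 2045 higher and 999 lower, and 1388 and 1289 after quantile normalization. Among the 5 lower members, KRT6B and KRT6C share sequence with KRT6A. Whether their falls are separate from that of KRT6A was not tested. In bulk RNA, fewer cells that express a gene and less of its RNA per cell cannot be told apart.

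**Figure D1:**
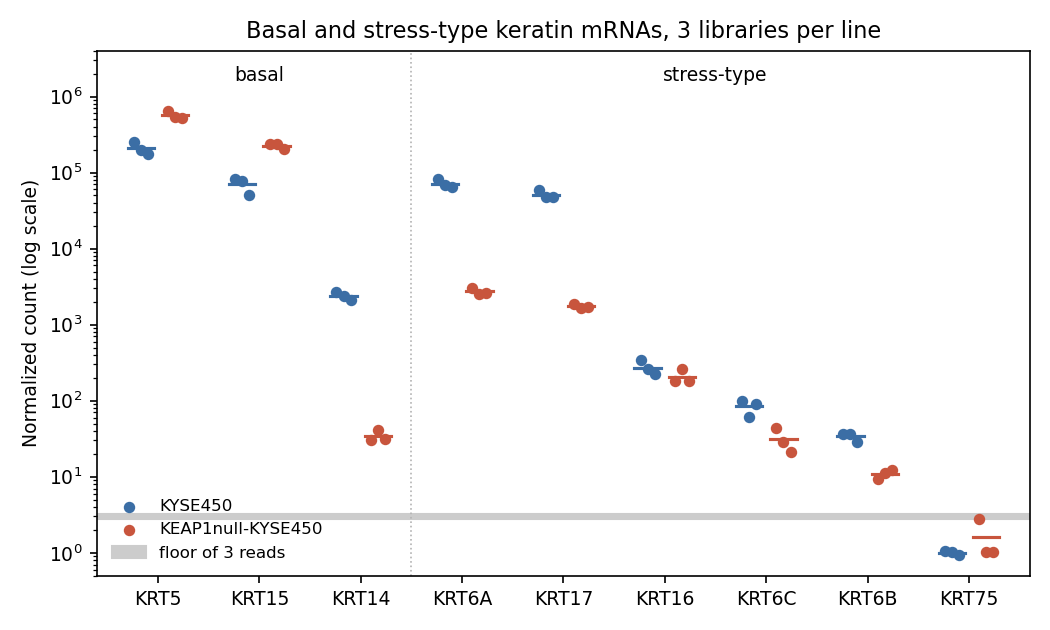
Normalized counts of the 9 keratins in each library on a logarithmic axis, with 3 points per line for KYSE450 (blue) and KEAP1null-KYSE450 (red), a bar at each mean and a grey band at the floor of 3 reads. The points of KRT5 and KRT15 sit higher in KEAP1null-KYSE450, those of KRT14, KRT6A and KRT17 sit far lower, those of KRT16 overlap, and those of KRT75 lie at or below 3 reads.

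KRT5, the type II chain of the basal pair, had 250359, 199564 and 174377 normalized counts in KYSE450. In KEAP1null-KYSE450 it had 648677, 536519 and 519548. Every KEAP1null-KYSE450 library was above every KYSE450 library, the lowest of the former being more than 2-fold the highest of the latter. Its mean of 208100 ± 38703 in KYSE450 stood against 568248 ± 70169 in KEAP1null-KYSE450 (SD, n = 3 per line). The log2 fold change was 1.46, with a 95% interval of 1.10 to 1.82 (standard error 0.17, adjusted p = 1.78e-05, limma). By its normalized count KRT5 ranked 11 among all genes in KYSE450 and 3 in KEAP1null-KYSE450, where it took 1.03 ± 0.124% of the library, against 0.367 ± 0.0694% in KYSE450. After quantile normalization, which forces 1 distribution on all libraries, its log2 fold change was 0.87 and no longer reached the limit of 1. A test against a fold of 2 gave an adjusted p of 0.115 (limma).

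KRT15, the further basal type I chain, moved like KRT5. Its normalized counts were 81247, 77735 and 50419 in KYSE450 and 235886, 234833 and 206602 in KEAP1null-KYSE450. The lines did not overlap, and the lowest KYSE450 value was that of library 3. The mean rose from 69800 ± 16876 to 225773 ± 16611 (SD, n = 3 per line), which is 1.72 on the log2 scale with a 95% interval of 1.36 to 2.09 (standard error 0.17, adjusted p = 4.77e-06, limma). KRT15 went from rank 77 to rank 12 among all genes. The microRNA gene MIR6510 overlaps KRT15 on the same strand and had at most 12.1 normalized counts in any library.

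KRT14, the usual type I partner of KRT5, moved the opposite way. It had 2699, 2368 and 2136 normalized counts in KYSE450, which is low beside KRT5, and 30.5, 41.8 and 31.3 in KEAP1null-KYSE450. All KEAP1null-KYSE450 libraries were above the floor of 3 reads, which lies between 2.77 and 3.21 normalized counts, so KRT14 RNA was still detected. Its mean of 2401 ± 283 became 34.5 ± 6.33 (SD, n = 3 per line). On the log2 scale this was -6.09, with a 95% interval of -6.46 to -5.71 (standard error 0.17, adjusted p = 3.46e-11, limma). This was the largest change among the 8 tested members.

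KRT6A, the most abundant of the KRT6 chains, had 81897, 67905 and 64933 normalized counts in KYSE450 and 3028, 2540 and 2646 in KEAP1null-KYSE450. The lines were far apart, while the libraries within each line differed little. The means were 71578 ± 9059 and 2738 ± 257 (SD, n = 3 per line), and the log2 fold change was -4.70 with a 95% interval of -4.95 to -4.46 (standard error 0.11, adjusted p = 5.11e-12, limma). Its rank among all genes went from 75 to 4095.

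KRT17, a type I chain of activated keratinocytes, had 58504, 47071 and 47236 normalized counts in KYSE450 and 1893, 1667 and 1729 in KEAP1null-KYSE450. Its means were 50937 ± 6554 and 1763 ± 117 (SD, n = 3 per line), with a log2 fold change of -4.85 and a 95% interval of -5.08 to -4.62 (standard error 0.11, adjusted p = 2.94e-12, limma). The fall was thus close in size to that of KRT6A, with overlapping 95% intervals. A long non-coding gene on the opposite strand overlaps KRT17 in the annotation, and whether counting used strand is not given in the sources used here.

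KRT16, the type I partner usually named with KRT6A, behaved unlike it. Its normalized counts were 338, 259 and 222 in KYSE450 and 181, 259 and 184 in KEAP1null-KYSE450, so the lines overlapped. The mean was 273 ± 59.3 against 208 ± 44.3 (SD, n = 3 per line). The log2 fold change of -0.39 had a 95% interval of -0.83 to 0.055 (standard error 0.21, adjusted p = 0.132, limma). The interval leaves room for a fall of up to 0.83 on the log2 scale and does not reach the falls of KRT6A and KRT17. KRT16 was already low in KYSE450, at a far smaller count than either of them.

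The other KRT6 genes were lowly counted. KRT6C had 101, 61.7 and 89.5 normalized counts in KYSE450 and 43.4, 28.5 and 21.2 in KEAP1null-KYSE450, without overlap (log2 fold change -1.44, standard error 0.34, adjusted p = 0.00358, limma). KRT6B had 36.4, 36.4 and 28.9 in KYSE450 and 9.23, 11.2 and 12.1 in KEAP1null-KYSE450, also without overlap (log2 fold change -1.56, standard error 0.41, adjusted p = 0.00688, limma). On the reads of 4 libraries the call for KRT6B was lost, with an adjusted p of 0.059 by edgeR and 0.102 by DESeq2, while on the reads of all 6 it was 0.0093 by edgeR and 0.0037 by DESeq2. Against a fold of 2 neither gene passed. KRT6A made up 99.8% of the summed level of the 3 KRT6 genes per kilobase of transcript in KYSE450 and 98.5% in KEAP1null-KYSE450. With the 3 rows added together before the fit, the log2 fold change of their sum was -4.69 (adjusted p = 5.50e-12, limma).

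KRT75 was barely detected. It had 1.07, 1.01 and 0.932 normalized counts in KYSE450 and 2.77, 1.02 and 1.01 in KEAP1null-KYSE450, all at or below 3 reads. No fold is given for it. A difference between the lines was not detectable for KRT75 at this depth.

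Of the 8 tested members, 7 had lines without overlap, against 57.8% of all genes. The order among libraries of a line was also shared by many members. KYSE450 library 1 held the highest of the 3 KYSE450 values for 7 of the 8 members, against 43.5% of all genes, and KEAP1null-KYSE450 library 1 the highest of its line for 5 of the 8, against 42.4%. Leaving out either library, or any other, changed no member's call.

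**Figure D2:**
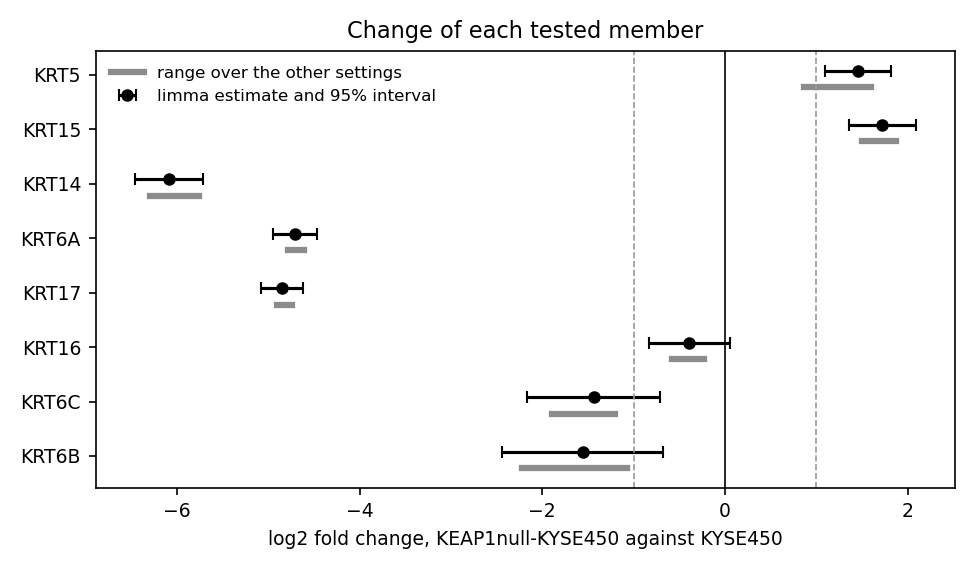
Log2 fold change of the 8 tested keratins, KEAP1null-KYSE450 over KYSE450, with 95% intervals from limma (3 libraries per line), grey bars for the range over the other processing settings without the summed KRT6 rows, and dashed lines at a log2 fold change of 1 in either direction. KRT5 and KRT15 lie to the right of 0, KRT16 at -0.39 has an interval that includes 0, and the others lie to the left, KRT14 farthest at -6.09.

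Levels of different genes were set side by side per kilobase of main transcript. In KYSE450 the order was KRT5 at 92985 ± 17294 normalized counts per kilobase, KRT15 at 40771 ± 9858, KRT17 at 33577 ± 4320 and KRT6A at 31013 ± 3925 (SD, n = 3). The library ranges of KRT15 and KRT17 overlapped, as did those of KRT17 and KRT6A. Far below came KRT14 at 1468 ± 173, KRT16 at 165 ± 35.8, KRT6C at 36.3 ± 8.68, KRT6B at 14.7 ± 1.87 and KRT75 at 0.463 ± 0.0317, with no overlap between neighbours. KYSE450 cells thus held much KRT5 RNA but little RNA of its textbook partner KRT14, with a ratio of 63.0 ± 4.24 between them.

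In KEAP1null-KYSE450 the same order ran from KRT5 at 253909 ± 31353 and KRT15 at 131877 ± 9703 down to KRT6A at 1186 ± 111 and KRT17 at 1162 ± 76.9, whose library ranges overlapped (normalized counts per kilobase, SD, n = 3). KRT16 at 125 ± 26.7 now lay above KRT14 at 21.1 ± 3.87, and KRT6C at 13.4 ± 4.89 overlapped with KRT14. KRT6B was at 4.71 ± 0.640. The ratio of KRT5 to KRT14 was 12367 ± 3101, and that of KRT5 to KRT6A was 214 ± 9.86, against 2.98 ± 0.196 in KYSE450 (ratios of levels per kilobase). The order below KRT5 depended on the transcript length used. With the union of all annotated exons, which is 5969 bases for KRT15 against 1712 in its main transcript, the KYSE450 levels per kilobase were 50351 for KRT5, 24463 for KRT6A, 17002 for KRT17 and 11694 for KRT15, so that KRT15 came last of these. In KEAP1null-KYSE450 KRT5 at 137490 and KRT15 at 37824 stayed ahead of KRT6A at 936 and KRT17 at 588. Changes of 1 gene between the lines do not depend on its length.

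Some ratios between members moved little. KRT5 over KRT15 was 2.32 ± 0.342 in KYSE450 and 1.93 ± 0.178 in KEAP1null-KYSE450, with libraries that overlapped. KRT6A over KRT17 was 0.924 ± 0.0226 and 1.02 ± 0.0278, a small step without overlap although each gene had fallen more than 26-fold, and with the union of exons it was 1.44 and 1.59. By contrast KRT6A over KRT16 went from 191 ± 18.2 to 9.81 ± 2.53, and KRT17 over KRT16 from 207 ± 22.8 to 9.59 ± 2.28 (ratios of levels per kilobase, SD, n = 3 each). These ratios were described without a test.

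Summed per kilobase, the 3 basal members went from 135224 ± 26160 to 385807 ± 38184, 2.85-fold higher, and the other 6 members, nearly all of it KRT6A and KRT17, from 64807 ± 8254 to 2493 ± 174, 26.0-fold lower. These 6 made up 32.6 ± 2.43% of the level of all 9 members in KYSE450 and 0.643 ± 0.0307% in KEAP1null-KYSE450. The rise of KRT5 and KRT15 was larger in level than the loss of KRT6A and KRT17, and the 9 members held 65.2 ± 1.24% of all keratin RNA in KEAP1null-KYSE450, against 53.2 ± 1.74% in KYSE450. Their share of the whole library was 1.44 ± 0.146% against 0.712 ± 0.123% (SD, n = 3 each).

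**Figure D3:**
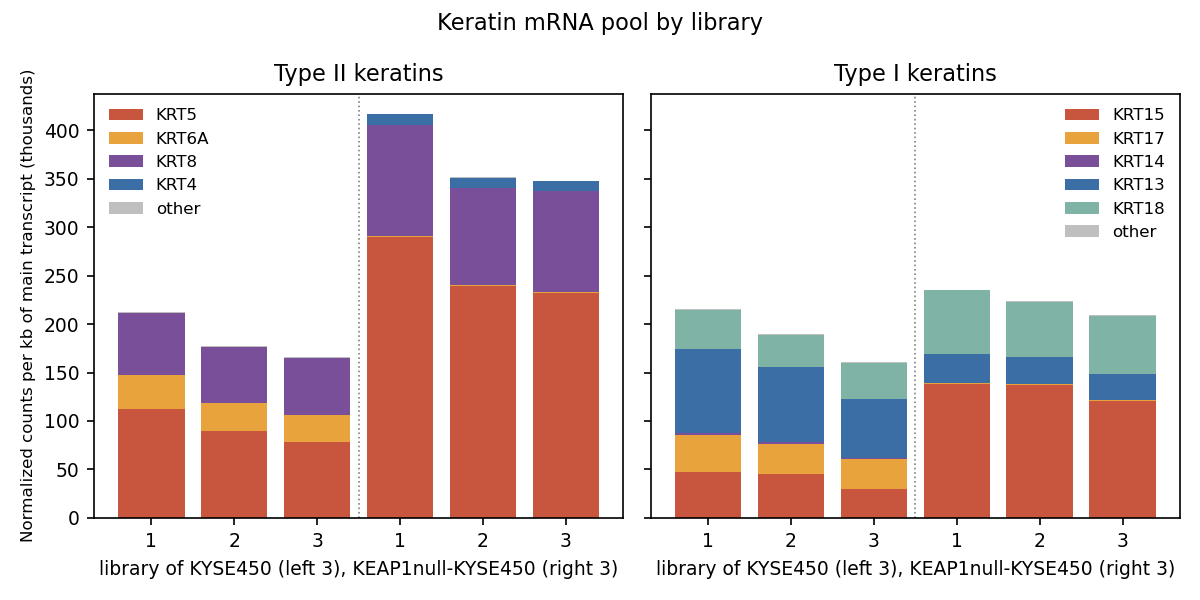
Summed level of the type II and of the type I keratins in each library, as stacked bars in normalized counts (in units of 1000) per kilobase of main transcript, coloured by gene. KRT15 goes from 21.4% to 59.2% of the type I bars and KRT5 from 49.8% to 68.1% of the type II bars, while KRT17 goes from 17.9% to 0.522% and KRT6A from 16.7% to 0.319% (means of 3 libraries per line).

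Within the type I chains, KRT15 went from 21.4 ± 2.81% of the level to 59.2 ± 1.91%, KRT17 from 17.9 ± 1.54% to 0.522 ± 0.0277% and KRT14 from 0.780 ± 0.0293% to 0.00949 ± 0.00179%. KRT13, a suprabasal chain of the oesophagus and no member, was the most abundant type I chain in KYSE450 with 39.7 ± 1.85% and had 12.7 ± 0.140% in KEAP1null-KYSE450. It was called lower (log2 fold change -1.40, adjusted p = 4.56e-06, limma). KRT18, the type I chain of simple epithelia, made up most of the rest.

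Within the type II chains, KRT5 went from 49.8 ± 2.88% to 68.1 ± 1.35% and KRT6A from 16.7 ± 0.171% to 0.319 ± 0.00920%. KRT8, the simple-epithelium partner of KRT18, had 32.7 ± 2.69% and 28.6 ± 1.26%, and in KYSE450 it lay below KRT6A with the union of exons as length, at 17.3% against 26.8%. KRT4, the textbook partner of KRT13, went from 0.159 ± 0.00609% to 2.86 ± 0.104%, opposite in direction to KRT13 (log2 fold change 5.17, adjusted p = 2.29e-12, limma). The ratio of type II to type I RNA per kilobase was 0.987, 0.934 and 1.04 in KYSE450 and 1.77, 1.57 and 1.66 in KEAP1null-KYSE450. The lines did not overlap. With the union of exons, KRT15 made up 12.6% and 45.1% of type I and the ratio of the types was 0.998 and 2.07.

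Among the 46 other protein-coding keratin genes, 16 were tested. Of the 16, 4 were called higher, against 12.2% of all genes, and 4 lower, against 5.98%. The higher KRT74, KRT3 and KRT78 passed the filter on the mean only through KEAP1null-KYSE450, and the lower KRT86 and KRT81 only through KYSE450. Beside KRT13 and KRT4, the other keratins with a mean of at least 1000 normalized counts in a line were KRT18, KRT8, KRT10 and KRT86. KRT18 (log2 fold change 0.71), KRT8 (0.81) and KRT10 (0.03) were not called. KRT86, a hair keratin, went from 1389 ± 126 normalized counts to 6.49 ± 1.66 (SD, n = 3 per line) and was called lower. Pseudogenes of KRT16 and KRT17 had 14 rows, and none was tested. Of these, KRT16P1, KRT16P3, KRT17P1 and KRT17P2 passed 3 reads in at least 1 KYSE450 library, and the highest value was 7.46 normalized counts for KRT16P3.

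Position in the chromosome 12 cluster was looked at after the values were seen. Of the 8 tested keratin genes from KRT80 to KRT6A, 6 were called lower, against 5.98% of all genes, and KRT7 and KRT83 were not called. Among the lower ones, KRT6A, KRT6B and KRT6C are near copies, and the gene of KRT86 spans that of KRT81 on the opposite strand. Of the 7 from KRT5 to KRT8 on the other side, 5 were called higher, against 12.2% of all genes, and KRT18 and KRT8 were not called. KRT5 and KRT6A, which moved in opposite directions, start 27.3 kb apart. Of the 5 higher genes, KRT74, KRT3 and KRT78 were at or near the floor in KYSE450, with means of 1.97, 0.932 and 0.667 normalized counts, so their fitted changes depend on the pseudocount. They passed the filter on the mean only through KEAP1null-KYSE450, so once tested they could be called in 1 direction only. On the lower side KRT86 and KRT81, with means of 6.49 and 8.09 in KEAP1null-KYSE450, passed it only through KYSE450. Keratins of the cluster that were low in both lines were not tested. In the chromosome 17 cluster KRT15 (higher) starts 64.4 kb from KRT14 (lower), and KRT16 (not called) starts 8.9 kb from KRT17 (lower).

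**Figure D4:**
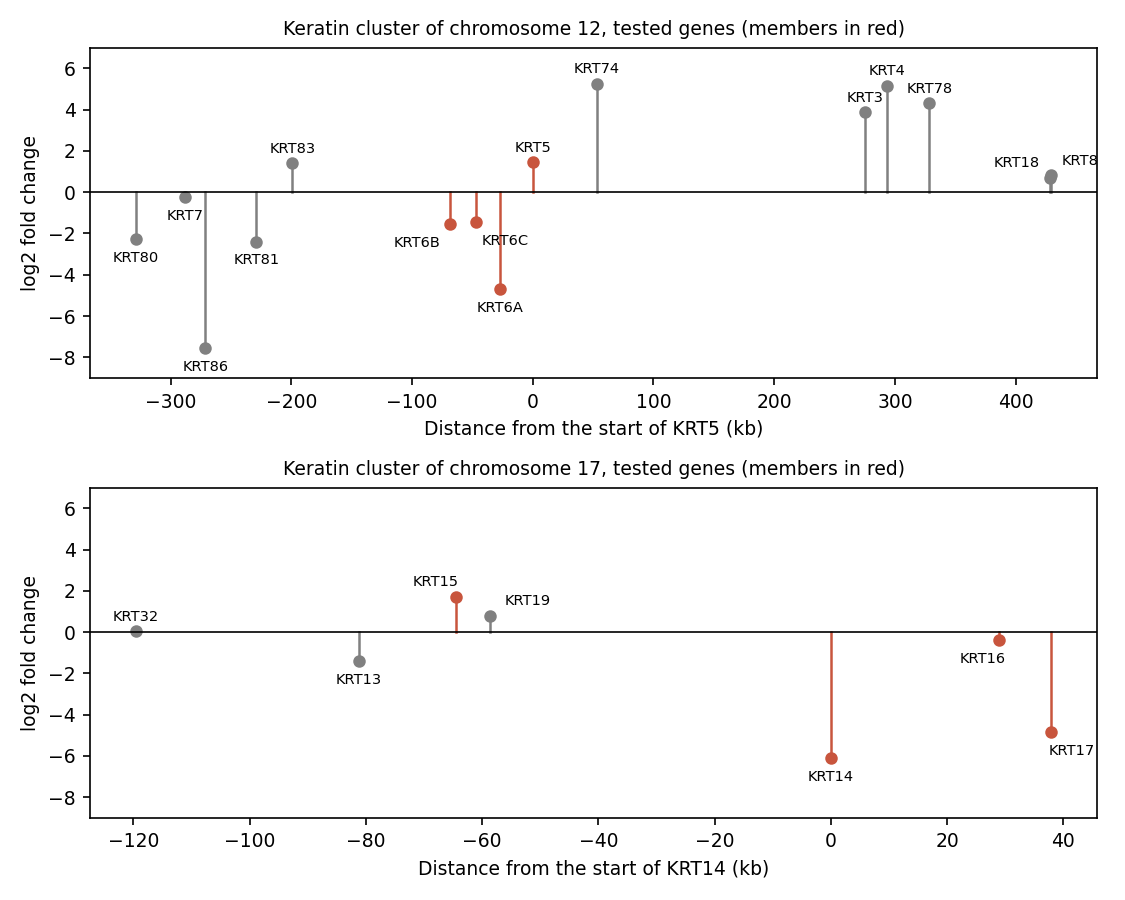
Log2 fold change (KEAP1null-KYSE450 over KYSE450, limma, 3 libraries per line) of tested keratin genes by distance of their start sites, in kilobases from KRT5 in the chromosome 12 cluster and from KRT14 in the chromosome 17 cluster, members in red. On chromosome 12, 6 of 8 genes on the KRT6A side were called lower, against 5.98% of all genes. From KRT5 onward 5 of 7 were called higher, against 12.2% of all genes. Among these, KRT74, KRT3 and KRT78 passed the filter on the mean only through KEAP1null-KYSE450 and could only be called higher. On the lower side KRT86 and KRT81 passed it only through KYSE450. KRT14, KRT16 and KRT17 on chromosome 17 lie next to each other with values of -6.09, -0.39 and -4.85.

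Genes that work with these keratins were looked at in lists chosen with earlier results of these data known. The shares to set beside the counts are those of all genes, 5.98% lower and 12.2% higher. Of 14 companions of KRT5 and KRT14 in basal cells, which anchor the cell to the basement membrane or mark the basal layer, 9 were called lower and the other 5 were not called, with a median log2 fold change of -1.16 against 0.004 for all genes. Among them were COL17A1 (-3.08), the hemidesmosomal collagen, CAV1 (-2.32) and LAMA3 (-2.13), a laminin chain of the basement membrane. KRT5 and KRT15 thus moved opposite to most of this list, and KRT14 moved with it. Of 12 genes that link keratin filaments to junctions, 5 were lower and the other 7 were not called (median -0.65), and after quantile normalization 3 were called. The lower ones included EPPK1 (-4.87), PKP1 (-2.95), DSP (-1.69) and JUP (-1.13). DSP, desmoplakin, ties keratin filaments to desmosomes.

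Of 18 genes of keratinocyte activation, the state in which KRT6, KRT16 and KRT17 rise in skin, 11 were tested, and 9 were lower and 2, IL1A and IL1RN, were higher (median log2 fold change -2.0). Over all genes 5.98% were called lower and 12.2% higher. IL1A had a mean of 3.91 normalized counts in KYSE450, near the floor, and IL1RN had 25.0 (adjusted p = 0.048, limma). IL1A passed the filter on the mean only through KEAP1null-KYSE450. The lower S100A7, S100A8 and S100A9, with means of 2.02, 0.340 and 1.99 in KEAP1null-KYSE450, passed it only through KYSE450. Once tested, these genes could be called in 1 direction only. EREG and AREG, ligands of the EGF receptor, fell from 1653 ± 131 to 78.2 ± 16.6 and from 1442 ± 44.8 to 81.1 ± 26.9 normalized counts. The chemokine CXCL8 fell from 2084 ± 514 to 509 ± 49.7. S100A9, the antimicrobial partner of S100A8, had 202 ± 49.2 normalized counts in KYSE450 and 1.99 ± 1.77 in KEAP1null-KYSE450, below the floor in 2 of its 3 libraries. KRT16 did not move with this list by the test used. Of 18 regulators of keratin genes, 3 were lower and 1 was higher (median -0.435). STAT3 (-1.83), KLF4 (-1.60) and JUNB (-1.02) were lower, and the higher one, GLI2, had a mean of 25.3 normalized counts. SOX2 (-0.997, adjusted p = 3.48e-06, limma) lay just short of the fold limit. Without a fold limit, 12 of the 18 were lower and 1 was higher by an unadjusted p under 0.05. The shares of 5.98% and 12.2% do not belong to this looser rule. By an adjusted p under 0.05 alone (limma), which is stricter than it, 4251 of all 16701 genes were lower and 4060 higher. Of 7 genes of keratin turnover, 0 were called by limma, edgeR or DESeq2 (median -0.11). By an unadjusted p under 0.05 without a fold limit 1, KLHL24, was higher and 3, SFN, HSPB1 and DNAJB6, were lower. The all-gene counts of 4251 lower and 4060 higher stand beside these too. KLHL24, SFN, HSPB1 and DNAJB6 each also had an adjusted p under 0.05, the largest being 0.0090 for KLHL24 (limma), and missed only the fold limit.

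Suprabasal and simple keratins formed the other lists. Of 15 suprabasal keratins 7 were tested, with 3 higher, against 12.2% of all genes, and 2 lower, against 5.98% (median 0.186). Beside KRT4 the higher ones were KRT3 and KRT78, with KYSE450 means of 0.932 and 0.667 normalized counts. Both passed the filter on the mean only through KEAP1null-KYSE450 and could only be called higher. KRT4 (5.17), KRT80 (-2.25) and KRT13 (-1.40) were the called ones with a mean of at least 100. Of 5 simple-epithelium keratins 4 were tested and 0 were called by limma, edgeR or DESeq2 (median 0.757). The 2 that were higher by an unadjusted p under 0.05 without a fold limit were KRT8 and KRT18. Both also passed an adjusted p under 0.05 (0.00013 and 0.00030, limma). By that limit alone 4060 of all 16701 genes were higher. The log2 fold changes of KRT8 and KRT18, 0.81 and 0.71, lay below the limit of 1.

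Profiles of log2 values over the 6 libraries, each centred on its own mean, were compared among 7757 genes whose mean reached 1000. Nearest to KRT5 by root mean square distance were HK1, a hexokinase (0.0605), ADD2, adducin 2 (0.0747), and CPT1A, which carries fatty acids into mitochondria (0.114). Their log2 fold changes were 1.53, 1.38 and 1.29. Nearest to KRT14 were PTHLH, parathyroid hormone-like hormone (0.418), HAS3, a hyaluronan synthase (0.612), and KRT17 (0.650), with log2 fold changes of -5.32, -5.00 and -4.85.

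The 6 libraries held 54829313 to 57380170 normalized counts, and the reads recovered for 4 of them numbered 53027359 to 61543442. Pearson's r of log2 values across genes, which are not independent replicates, was 0.984 to 0.989 within a line and 0.924 to 0.936 between lines. KEAP1 mRNA did not separate the lines (log2 fold change -0.02, adjusted p = 0.90, limma), and counts per gene do not show the edit. All 10 squamous and epithelial markers were detected, their sum was 130593 to 164367 in KYSE450 and 106953 to 133800 in KEAP1null-KYSE450, and 1 of them, PKP1, was called lower. CDH1 (log2 fold change -0.82), PERP (-0.64), TP63 (-0.60) and SFN (-0.41) were lower with an adjusted p under 0.05 (limma) and missed only the fold limit. DSC3 (0.60) and DSG3 (0.41) were higher in the same way. Of 7 fibroblast markers 1, COL1A1, was tested and not called. The sum of the 7 was 624 to 853 and 352 to 437 normalized counts, with COL1A2 and DCN at a mean of 0 in KYSE450 and below 1 in KEAP1null-KYSE450. Of 8 immune and endothelial markers, PECAM1 was at 0 in every library, and the sum was 59.9 to 85.9 and 53.5 to 79.7. CDH5 was called lower from a mean of 19.9 and passed the filter on the mean only through KYSE450. The part of these levels in the keratin differences was not tested.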

How the data were processed

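RNA sequencing of 3 KYSE450 and 3 KEAP1null-KYSE450 libraries was used. The deposited values are normalized counts, a signal per gene that the authors made by dividing read counts by a size factor. The submitters' processing notes name FastQC 0.11.5, cutadapt 1.12, STAR 2.6.90c and featureCounts 1.5.1, and the methods name hg38 and DESeq2. Divided by the smallest step of its library, 100% of the values of each of the 6 libraries lay within 0.1 of a whole number of reads. The step was 1.01 in 2 libraries, too near 1 for the test of recovered reads set here, and the planned count tests used the other 4. The columns name the line but no replicate number.

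Lines were compared with limma 3.58.1 (R 4.3.3, eBayes with trend, two-sided) on log2(normalized count + 1), over the 16701 genes whose mean reached 10, with Benjamini-Hochberg adjustment. Fold changes on this scale understate those of low genes. Ratios of means are given as folds. The methods name a count test, which was kept as an alternative because the deposited values are not counts. edgeR 4.0.16 and DESeq2 1.42.0 were run on the reads of 4 libraries and, added after seeing the data, of all 6. Floors of 3 reads cover counting error only. Levels between genes were divided by main transcript length (gencode v44).

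The members and lists were chosen with earlier results of these data known. Named were the 9 members, other keratins with at least 1000 normalized counts in a line, pseudogenes above the floor, up to 4 called genes per list with the largest change and a mean of at least 100, and the 3 nearest profiles to KRT5 and KRT14. Some genes that this rule names are not reported here. Further genes were named to resolve small counts, after their values were seen. The alternatives were other pseudocounts, filters, scalings, thresholds and tools, each library left out, KRT6 rows summed, and, added after seeing the data, the union of exons as length. The scripts were tested on simulated data.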

Additional observations from a re-analysis of the deposited data

How the results depend on the processing

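The directions of the 8 tested keratins held under every alternative run, 19 or 20 for each. Runs that changed only the gene filter, the trend of eBayes or the call rule kept the main log2 fold change and could not change a direction. For KRT6B and KRT6C the runs include the summed KRT6 rows, nearly all of it KRT6A. The log2 fold change lay between 0.87 and 1.60 for KRT5, 1.504 and 1.88 for KRT15, -6.29 and -5.76 for KRT14, -4.78 and -4.60 for KRT6A, -4.90 and -4.74 for KRT17 and -0.58 and -0.23 for KRT16, which was never called, although its adjusted p was 0.031 after quantile normalization (limma). Calls were lost for KRT5 after quantile normalization (0.87) and, in the test against a fold of 2, for KRT5 (1.46), KRT6B (-1.56) and KRT6C (-1.44), which left 4 members called. KRT6B also lost its call with edgeR (-1.63, adjusted p = 0.059) and DESeq2 (-1.67, adjusted p = 0.102) on 4 libraries, but not on all 6 (-1.61 and -1.64), where both tools called 7 members, an alternative added after seeing the data. Over all genes, 2045 were called higher and 999 lower. A mean of at least 100, which tests fewer genes, gave 875 higher, an adjusted p alone gave 4060 higher and 4251 lower, and the test against a fold of 2 gave 626 and 395. Quantile normalization gave 1388 higher and 1289 lower, or 51.8% higher among the called against 67.2%, and shifted the median of all genes from 0.004 to -0.017. Leaving out any 1 library changed no call of a member. No paired analysis was possible because the columns carry no replicate number. KRT75 stayed below the depth needed for a comparison.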
